A study of Danio rerio with 18 samples.

Results

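A group of 20 probe sets of 19 zebrafish genes was read as maternal from a high level in mock-injected embryos 1 hour after fertilization (hpf). Their mock means stayed near that level at 7 hpf and were far lower at 24 hpf. The probe sets were chosen by these mock means in these same data, from 15502 probe sets on Affymetrix arrays, of which 10795 had 1 gene symbol. The rule asked for a mean of at least 7 on the log2 scale in mock embryos of 1 hpf, a mock mean at 7 hpf within 0.75 of it and a mock mean at 24 hpf lower than that at 7 hpf by at least 4, and it left out symbols starting with zp, ccn, eif, ddx, slc, rab, ube2, rnf, usp, kif, tdrd or piwil. The study injected wild-type Danio rerio embryos at the stage of 1 to 2 cells with a locked nucleic acid (LNA) oligonucleotide, labelled anti-mir-34LNA, or with a control labelled mockLNA. An LNA oligonucleotide binds a small RNA tightly and blocks it, and mir-34 is a microRNA that in mammals acts downstream of p53. Embryos developed at 30 °C and were collected whole at 1, 7 or 24 hpf, those of 7 and 24 hpf dechorionated by hand. The 6 groups were anti-mir-34 embryos of 1, 7 and 24 hpf and mock embryos of 1, 7 and 24 hpf, with 3 arrays, called biological replicates in the labels, in each. The labels give neither the dose of LNA nor the number of embryos per sample, and do not say whether replicates came from separate clutches, so p-values measure only the spread between these samples. The level of mir-34 itself was not analysed here.

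An egg is loaded with messenger RNA during oogenesis, and the embryo lives on it until its own genome is switched on at the mid-blastula transition. Maternal messages are then removed, some early, in zebrafish partly through the microRNA miR-430, and others later through pathways that depend on zygotic transcription. A message that keeps its level through gastrulation may be stable, or may be replaced by zygotic transcription, and arrays of total RNA do not tell these apart. In whole embryos, fewer cells of a type and less RNA per cell cannot be told apart either.

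The values that chose the members are given as a description. Of 1535 probe sets with 1 symbol and a mock 1 hpf mean of at least 7, 798 kept their mock mean to 7 hpf within the limit, and 24 of these lost at least 4 by 24 hpf. Names took out 4 of the 24: zp2.6, ccna1, ccne1 and slc16a3b. In mock embryos the means of the 20 ran from 7.02 to 9.70 at 1 hpf, from 6.29 to 9.69 at 7 hpf and from 0.20 to 3.68 at 24 hpf, and their median difference was -0.47 between 1 and 7 hpf and -4.99 between 7 and 24 hpf. Just inside the level limit stood LOC797085, fbxo32 and dennd6b with 1 hpf means of 7.02, 7.04 and 7.05, and just outside it cpeb1b, zar1 and micall2a with 6.98, 6.98 and 6.97. Just inside the limit on the change to 7 hpf were tent5c, LOC797085 and s100a1 with -0.75, -0.73 and -0.71, and just outside it cyp11a1.1, zgc:103482 and acp5a with -0.79, -0.80 and -0.84. Just inside the limit on the fall by 24 hpf were dennd6b, tmem251 and tpi1a, which lost 4.07, 4.11 and 4.28, and just outside it gtsf1, osbpl7 and tdgf1 with 3.996, 3.72 and 3.68. Membership leaned on single arrays of 7 hpf: without mock 7 hpf replicate 2 only 10 probe sets met the rule, and without mock 7 hpf replicate 3 there were 35. The sizes of the losses are also not exact, because nearly all 24 hpf means lay below the array medians of 3.67 to 3.68. The exception was 1 tent5c probe set, whose 24 hpf means were 3.86 in anti-mir-34 and 3.68 in mock embryos. Single arrays of other members stood above the medians too, such as pou5f3 at 3.96 on mock replicate 2 and tpi1a at 3.89 on anti-mir-34 replicate 2. The deposited values hold no detection calls. When 16 was added to each signal before taking log2, which damps dim values, only pou5f3 met the rule.

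**Figure D1:**
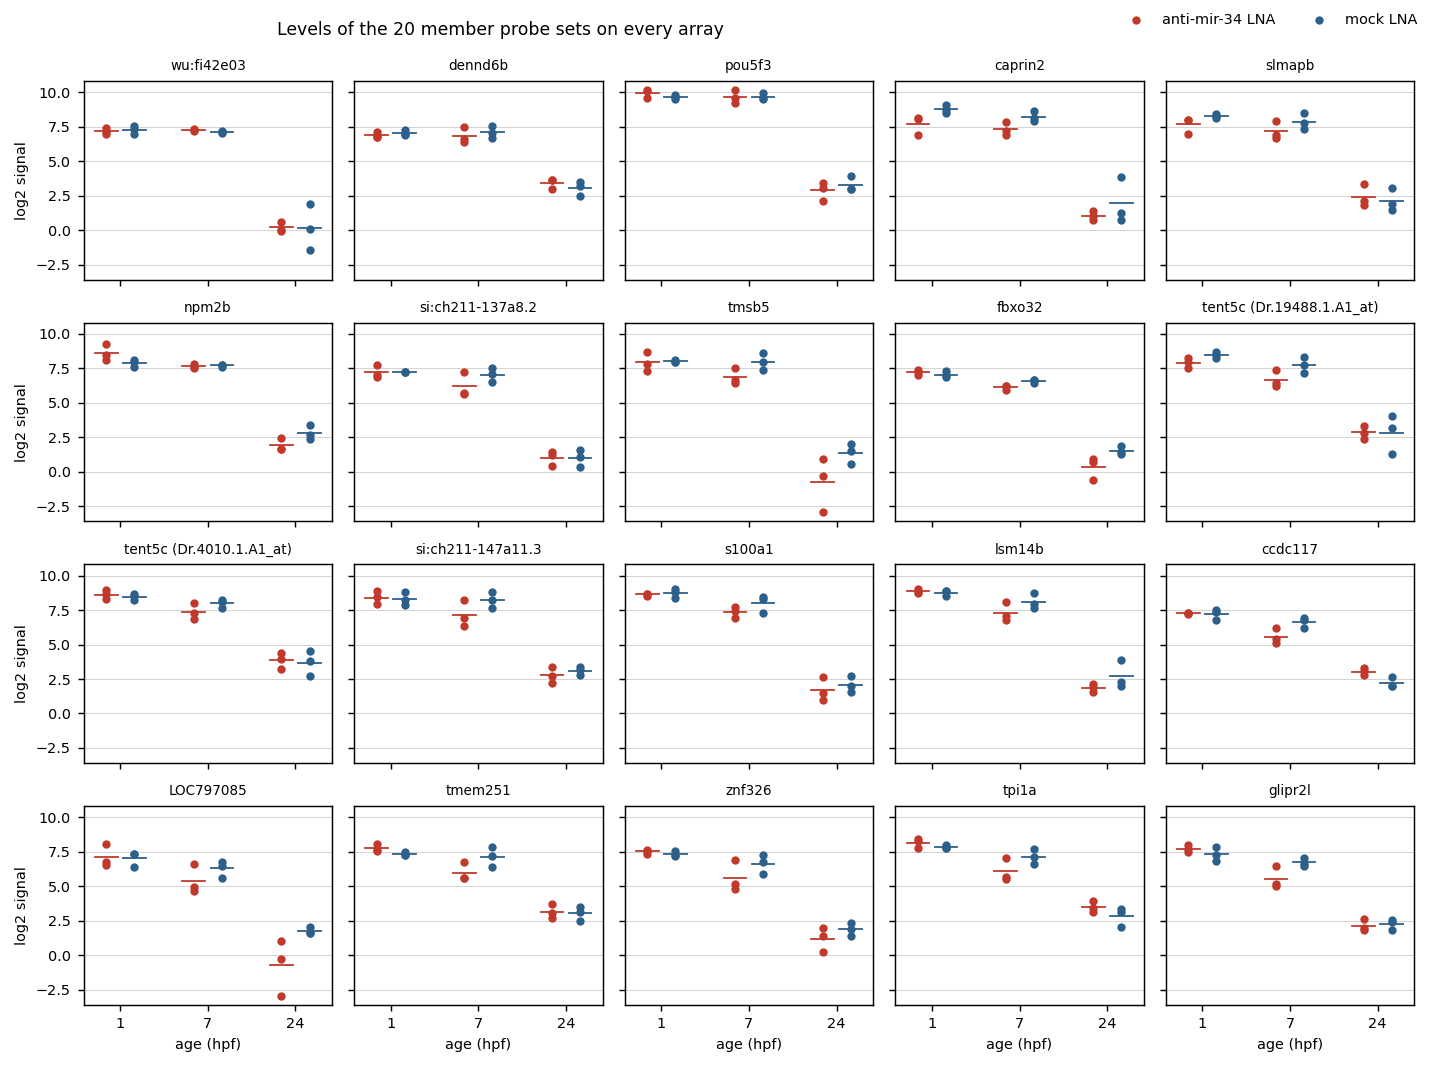
Log2 signal (y axis) of each of the 20 probe sets at 1, 7 and 24 hpf (x axis), with a point for each array of anti-mir-34 (red) and mock embryos (blue) and a line at the mean of 3. Panels run from the smallest to the largest fall between 1 and 7 hpf in anti-mir-34 embryos, from wu:fi42e03 to glipr2l, and every 24 hpf point lies below every 7 hpf point of its treatment.

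Arrays of 1 group differed in the markers of embryo stage. At 7 hpf the median log2 level of 11 gastrula genes, such as tbxta, gsc and chrd, was 6.81, 6.57 and 7.12 in the 3 anti-mir-34 arrays and 6.07, 4.89 and 6.68 in the 3 mock arrays, so that mock replicate 2 stood lowest. At 24 hpf the oocyte linker histone h1m stood at -1.38, -0.35 and -0.09 in the anti-mir-34 arrays, and at -0.68, 5.62 and -0.36 in mock replicates 1, 2 and 3. The median of 8 muscle genes was between 10.00 and 10.41 on all 6 arrays of 24 hpf and at most 2.51 on the other 12. GAPDH read at its 3' end minus its 5' end, a sign of RNA integrity and labelling, was between 0.99 and 1.77 on the 6 arrays of 24 hpf and between -1.40 and 0.78 on those of 7 hpf. Its part in the losses described next was not tested.

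The anti-mir-34 arrays had no part in choosing the members, so they show the same messages in other embryos. There all 20 probe sets fell between 7 and 24 hpf (limma with Benjamini-Hochberg adjustment over 15502 probe sets, adjusted p from 5.31e-12 to 3.35e-05), where 19.4% of all probe sets and 42.1% of the 1535 maternally abundant ones were called lower. The 3 arrays of 24 hpf lay below the 3 of 7 hpf for all 20, against 28.2% of all probe sets. The falls ran from 2.51 to 7.62 with a median of 4.97 on the log2 scale, while the median difference was -0.13 over all probe sets and -0.49 over the 1515 other maternally abundant ones. With 16 added to the signals, the falls ran from 1.39 to 5.13. The largest were those of tmsb5, wu:fi42e03, pou5f3, caprin2 and LOC797085, and the smallest those of ccdc117, tpi1a and tmem251. Neither all probe sets nor the 1535 are a like set here, because only the members were chosen for a fall of at least 4 in mock embryos.

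The step from 1 to 7 hpf, which the rule had held nearly flat in mock embryos, was not flat for most members in anti-mir-34 embryos. The rule capped this step in mock embryos only, so the choice of members favours a larger fall in the other embryos. In mock embryos 19 of the 20 differences were negative too, with a median of -0.47. The F-test of whether the injection effect changed with age passed for 0 members, so no difference between treatments is read from this step. There 11 of the 20 probe sets (55%) fell and 0 rose, where 20.0% of all probe sets were called lower and 19.4% higher. Among the 1535 maternally abundant probe sets 42.3% were called lower, and the members' 55% is set beside that share, with nothing in it taken as particular to them. The 1535 are not a like set, because they also hold probe sets whose mock mean changed by more than 0.75 between 1 and 7 hpf. The share among the 798 that kept their mock mean was not computed. At an unadjusted p below 0.05 there were 14 of 20, where 47.5% of all probe sets passed in either direction. The median difference was -1.23, against -0.23 over all probe sets and -0.47 over the other maternally abundant ones, and the 3 arrays of 7 hpf lay below the 3 of 1 hpf for 11 members, against 27.2% of all probe sets. Without anti-mir-34 7 hpf replicate 3 the count was 6, and with 16 added it was 15, as LOC797085, si:ch211-137a8.2, tmsb5 and the second tent5c probe set then passed too. Both steps share the 7 hpf arrays, so that a low level there makes the first step larger and the second smaller.

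**Figure D2:**
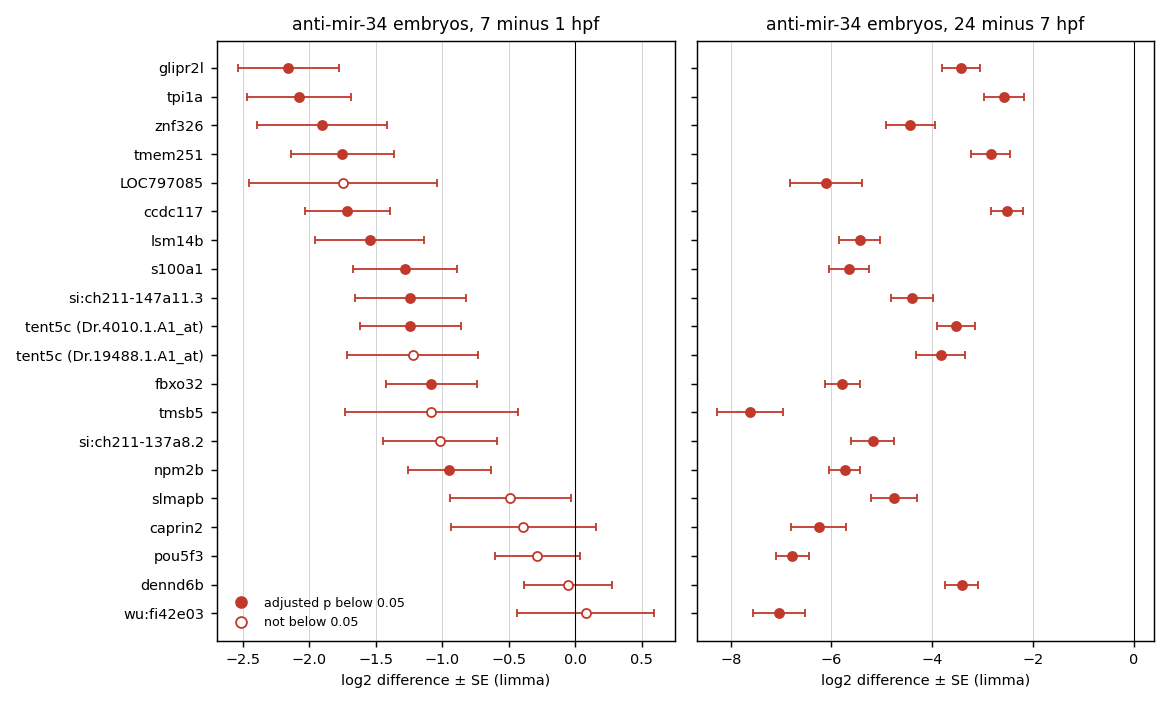
Log2 differences in anti-mir-34 embryos between 7 and 1 hpf (left) and between 24 and 7 hpf (right), as points with limma's standard error, filled where the adjusted p was below 0.05. Members are ordered by the first step: glipr2l lost 2.16 by 7 hpf, wu:fi42e03 stood at 0.08, and all 20 fell in the second step.

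**Figure D3:**
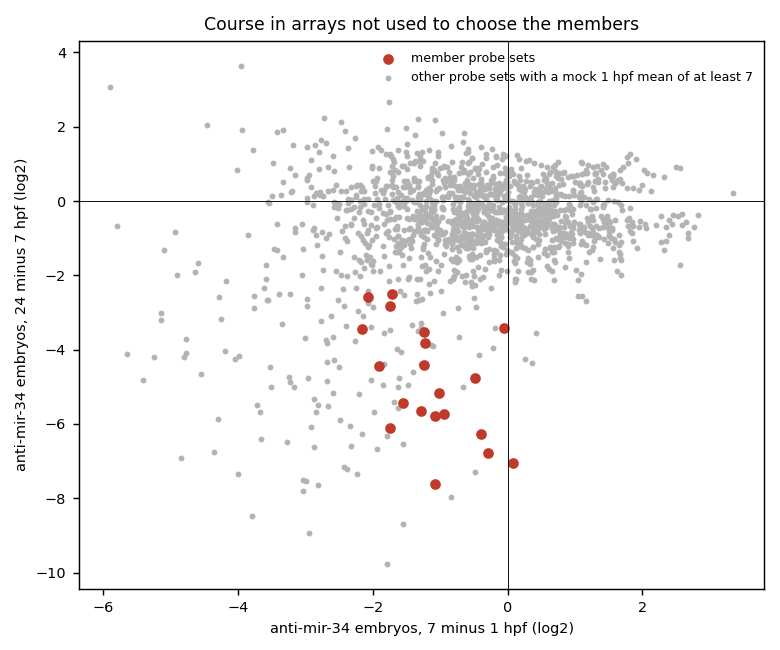
Change between 1 and 7 hpf (x axis) and between 7 and 24 hpf (y axis) in anti-mir-34 embryos, on the log2 scale, for the 20 members (red) and 1515 other probe sets with a mock 1 hpf mean of at least 7 (grey). The members lie at or left of 0.08 on the x axis and at or below -2.51 on the y axis.

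Among regulators of transcription and chromatin, pou5f3 codes for the POU-domain factor related to mammalian Oct4 that helps to switch on the zygotic genome. It read 10.15, 9.62 and 10.09 at 1 hpf, 9.62, 10.14 and 9.25 at 7 hpf and 3.44, 3.10 and 2.15 at 24 hpf in anti-mir-34 embryos. pou5f3 in mock embryos read 9.69, 9.55 and 9.85, then 9.96, 9.50 and 9.59, then 2.98, 3.96 and 2.98 at the same ages. All 6 arrays of 7 hpf lay between 9.25 and 10.14, overlapping those of 1 hpf, and all 6 of 24 hpf lay below 4. The anti-mir-34 difference was -0.28 ± 0.32 between 1 and 7 hpf (SE, n = 3 per age; limma adjusted p = 0.508), and it fell by 6.77 ± 0.32 by 24 hpf (adjusted p = 5.31e-12; -5.13 with 16 added). npm2b codes for an egg nucleoplasmin, a histone chaperone that in oocytes stores histones and acts on sperm chromatin. It read 9.27, 8.08 and 8.45 at 1 hpf, 7.53, 7.82 and 7.62 at 7 hpf and 1.65, 1.64 and 2.45 at 24 hpf in anti-mir-34 embryos. npm2b in mock embryos read 7.62, 7.98 and 8.11, then 7.79, 7.63 and 7.78, then 2.41, 3.37 and 2.70 at the same ages. The 6 arrays of 7 hpf lay between 7.53 and 7.82, closer together than at 1 hpf. It fell in anti-mir-34 embryos by 0.95 ± 0.31 by 7 hpf (adjusted p = 0.021), a call that was lost without anti-mir-34 1 hpf replicate 1 (difference -0.61, adjusted p = 0.144) and without anti-mir-34 7 hpf replicate 1 or 3 (0.069 and 0.0577), and by a further 5.74 ± 0.31 by 24 hpf (adjusted p = 4.87e-11). znf326 codes for a zinc finger protein that in human cells links transcript elongation to splicing. It read 7.34, 7.66 and 7.56 at 1 hpf, 5.16, 6.86 and 4.81 at 7 hpf and 1.95, 1.39 and 0.19 at 24 hpf in anti-mir-34 embryos. znf326 in mock embryos read 7.22, 7.52 and 7.21, then 6.73, 7.28 and 5.86, then 2.33, 1.93 and 1.40 at the same ages. At 7 hpf, anti-mir-34 replicates 1 and 3 were the lowest of the 6 arrays. It fell by 1.90 ± 0.49 by 7 hpf (adjusted p = 0.00388) and by 4.43 ± 0.49 from there to 24 hpf (adjusted p = 6.29e-07) in anti-mir-34 embryos.

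Messenger RNA handling was represented by lsm14b, caprin2 and tent5c. The Lsm14 proteins bind stored messages in cytoplasmic granules, and Lsm14b is known from mouse oocytes. lsm14b read 8.76, 8.78 and 9.01 at 1 hpf, 7.08, 8.06 and 6.76 at 7 hpf and 1.91, 1.53 and 2.15 at 24 hpf in anti-mir-34 embryos. lsm14b in mock embryos read 8.86, 8.51 and 8.87, then 7.95, 8.73 and 7.63, then 1.97, 3.89 and 2.26 at the same ages. The highest mock value of 24 hpf was that of replicate 2, the array on which h1m was also high. It fell by 1.55 ± 0.41 by 7 hpf in anti-mir-34 embryos (adjusted p = 0.00506) and by 5.44 ± 0.41 by 24 hpf (adjusted p = 4.16e-09). caprin2 codes for an RNA-binding protein that also acts at the Wnt co-receptor Lrp6. It read 6.92, 8.12 and 8.09 at 1 hpf, 7.17, 7.86 and 6.92 at 7 hpf and 1.39, 1.04 and 0.76 at 24 hpf in anti-mir-34 embryos. caprin2 in mock embryos read 8.53, 8.73 and 9.10, then 8.13, 8.68 and 7.92, then 1.28, 3.89 and 0.74 at the same ages. Here too mock replicate 2 stood above the other arrays of 24 hpf. Its anti-mir-34 difference to 7 hpf was -0.39 ± 0.54 (adjusted p = 0.601), and it fell by 6.26 ± 0.54 by 24 hpf (adjusted p = 2.75e-08).

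tent5c codes for a non-canonical poly(A) polymerase, which in mammals lengthens the tails of certain messages, and 2 of its 4 probe sets were members. The member Dr.4010.1.A1_at read 8.27, 8.95 and 8.66 at 1 hpf, 7.30, 7.996 and 6.87 at 7 hpf and 3.26, 4.36 and 3.96 at 24 hpf in anti-mir-34 embryos. The same probe set in mock embryos read 8.25, 8.67 and 8.49, then 8.07, 8.25 and 7.64, then 3.79, 4.50 and 2.75 at the same ages. Its 3 anti-mir-34 values of 7 hpf lay below the 3 of 1 hpf. It fell by 1.24 ± 0.38 by 7 hpf in anti-mir-34 embryos (adjusted p = 0.0125; 0.053 without 1 hpf replicate 2 and 0.0775 without 7 hpf replicate 3) and by 3.53 ± 0.38 by 24 hpf (adjusted p = 4.15e-07). The other member, Dr.19488.1.A1_at, differed by -1.22 ± 0.49 at the first step (adjusted p = 0.0538) and fell by 3.83 ± 0.49 at the second (adjusted p = 4.16e-06). The 2 tent5c probe sets that were no members, Dr.10516.1.S1_at and Dr.10516.1.S2_at, fell by 3.27 and 4.08 between 7 and 24 hpf in anti-mir-34 embryos (adjusted p = 1.08e-05 and 1.63e-05). All 4 probe sets of the gene gave the same direction, but not the same end level. Dr.10516.1.S1_at, the brightest of them at 1 hpf, still stood at 5.31 in mock and 4.44 in anti-mir-34 embryos at 24 hpf, above the array medians. Between 1 and 7 hpf the 2 that were no members differed by -1.29 and -1.15 (adjusted p = 0.0292 and 0.128).

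Genes of protein turnover, membrane traffic and scaffolds made up 5 members. fbxo32 codes for atrogin-1, an F-box subunit of a ubiquitin ligase known from wasting muscle. It read 7.00, 7.41 and 7.22 at 1 hpf, 6.22, 6.22 and 5.95 at 7 hpf and 0.74, -0.62 and 0.90 at 24 hpf in anti-mir-34 embryos. fbxo32 in mock embryos read 6.86, 7.28 and 6.99, then 6.68, 6.67 and 6.43, then 1.302, 1.43 and 1.90 at the same ages. The 3 arrays of 7 hpf lay below the 3 of 1 hpf in both treatments. It fell by 1.08 ± 0.34 by 7 hpf in anti-mir-34 embryos (adjusted p = 0.0163; 0.0587 without 1 hpf replicate 2 and 0.0614 without 7 hpf replicate 3) and by 5.79 ± 0.34 by 24 hpf (adjusted p = 1.55e-10). dennd6b codes for a DENN-domain protein, a family that activates Rab GTPases of membrane traffic. It read 6.78, 6.79 and 7.16 at 1 hpf, 6.42, 7.52 and 6.64 at 7 hpf and 3.66, 3.68 and 2.99 at 24 hpf in anti-mir-34 embryos. dennd6b in mock embryos read 6.96, 6.90 and 7.28, then 7.06, 7.59 and 6.71, then 3.52, 3.18 and 2.46 at the same ages. In both treatments the values of 7 hpf overlapped those of 1 hpf. In anti-mir-34 embryos dennd6b differed by -0.05 ± 0.33 to 7 hpf (adjusted p = 0.913) and fell by 3.41 ± 0.33 by 24 hpf (adjusted p = 1.36e-07). slmapb, related to a mammalian membrane-anchored subunit of the STRIPAK phosphatase complex, had anti-mir-34 means of 7.67 ± 0.62, 7.19 ± 0.67 and 2.43 ± 0.80 at 1, 7 and 24 hpf (SD, n = 3 each), with a difference of -0.49 ± 0.46 at the first step (adjusted p = 0.422) and a fall of 4.76 ± 0.46 at the second (adjusted p = 1.04e-07).

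The other members of that class lost much of their level by 7 hpf in anti-mir-34 embryos. glipr2l belongs to the CAP-domain proteins, of which mammalian GLIPR2 sits on the Golgi. It read 7.45, 8.01 and 7.68 at 1 hpf, 4.99, 6.49 and 5.18 at 7 hpf and 1.84, 2.59 and 1.93 at 24 hpf in anti-mir-34 embryos. glipr2l in mock embryos read 7.87, 6.79 and 7.29, then 6.63, 7.06 and 6.46, then 1.79, 2.56 and 2.42 at the same ages. Its 3 anti-mir-34 values of 7 hpf lay below those of 1 hpf. It fell by 2.16 ± 0.38 by 7 hpf (adjusted p = 0.000135), the largest such fall among the members, and by 3.43 ± 0.38 by 24 hpf (adjusted p = 7.11e-07). tmem251 is the counterpart of a human gene needed to sort lysosomal enzymes. It read 8.02, 7.55 and 7.64 at 1 hpf, 5.60, 6.77 and 5.59 at 7 hpf and 3.74, 2.69 and 3.02 at 24 hpf in anti-mir-34 embryos. tmem251 in mock embryos read 7.47, 7.26 and 7.23, then 7.21, 7.81 and 6.36, then 3.49, 3.10 and 2.46 at the same ages. It fell by 1.75 ± 0.39 (adjusted p = 0.00114) and then by 2.84 ± 0.39 (adjusted p = 8.58e-06) in anti-mir-34 embryos. A second, dim tmem251 probe set, with means between 0.86 and 2.36 in all 6 groups, differed by -0.04 between 7 and 24 hpf in anti-mir-34 embryos (adjusted p = 0.981).

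Metabolism, calcium and actin were represented by tpi1a, s100a1 and tmsb5. tpi1a codes for triose-phosphate isomerase of glycolysis. It read 8.42, 7.77 and 8.24 at 1 hpf, 5.54, 7.02 and 5.63 at 7 hpf and 3.45, 3.89 and 3.14 at 24 hpf in anti-mir-34 embryos. tpi1a in mock embryos read 7.75, 7.77 and 7.96, then 7.08, 7.70 and 6.63, then 3.37, 2.06 and 3.14 at the same ages. It went down in steps of like size in anti-mir-34 embryos, by 2.08 ± 0.39 to 7 hpf (adjusted p = 0.00027) and by 2.57 ± 0.39 to 24 hpf (adjusted p = 3.35e-05). s100a1 codes for a calcium-binding EF-hand protein. It read 8.50, 8.70 and 8.69 at 1 hpf, 7.69, 7.45 and 6.92 at 7 hpf and 1.46, 0.98 and 2.66 at 24 hpf in anti-mir-34 embryos. s100a1 in mock embryos read 9.01, 8.34 and 8.78, then 8.41, 8.32 and 7.27, then 1.57, 2.71 and 2.01 at the same ages. It fell by 1.28 ± 0.39 by 7 hpf in anti-mir-34 embryos (adjusted p = 0.0133; 0.0717 without 7 hpf replicate 3) and by 5.65 ± 0.39 by 24 hpf (adjusted p = 1.48e-09). tmsb5 codes for a thymosin beta, a small protein that sequesters actin monomers. It read 8.72, 7.84 and 7.30 at 1 hpf, 6.63, 7.56 and 6.43 at 7 hpf and -2.88, 0.93 and -0.29 at 24 hpf in anti-mir-34 embryos. tmsb5 in mock embryos read 7.93, 7.99 and 8.15, then 7.97, 8.64 and 7.36, then 1.50, 1.99 and 0.58 at the same ages. The 24 hpf values lay near the bottom of the scale and spread widely, and its fall of 7.62 ± 0.65 (adjusted p = 2.01e-08) became -2.98 with 16 added. Its first step of -1.08 ± 0.65 did not pass (adjusted p = 0.196).

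For 5 members no role is given here. wu:fi42e03 read 7.41, 6.95 and 7.15 at 1 hpf, 7.18, 7.33 and 7.24 at 7 hpf and 0.62, 0.02 and -0.04 at 24 hpf in anti-mir-34 embryos. wu:fi42e03 in mock embryos read 7.57, 6.96 and 7.35, then 7.18, 7.06 and 7.11, then 1.94, 0.08 and -1.43 at the same ages. Its 6 arrays of 7 hpf lay between 7.06 and 7.33, and it fell by 7.05 ± 0.51 by 24 hpf in anti-mir-34 embryos (adjusted p = 2.69e-09; -3.29 with 16 added). ccdc117, a coiled-coil protein gene, averaged 7.27 ± 0.02, 5.55 ± 0.57 and 3.04 ± 0.25 at 1, 7 and 24 hpf in anti-mir-34 embryos (SD, n = 3 each). It fell by 1.72 ± 0.32 (adjusted p = 0.000236) and 2.51 ± 0.32 (adjusted p = 3.98e-06) at the 2 steps. si:ch211-147a11.3 fell by 1.24 ± 0.42 (adjusted p = 0.0238) and 4.40 ± 0.42 (adjusted p = 9.76e-08). The first of these calls was lost without anti-mir-34 1 hpf replicate 1 or 2 (0.102 and 0.0512), without 7 hpf replicate 1 (difference -0.82, adjusted p = 0.159) or 3 (0.0834) and without the intensity trend (0.0525). si:ch211-137a8.2 and LOC797085 differed by -1.01 ± 0.43 and -1.74 ± 0.71 to 7 hpf (adjusted p = 0.0664 and 0.0562) and fell by 5.18 ± 0.43 and 6.11 ± 0.71 to 24 hpf (adjusted p = 1.44e-08 and 1.21e-06).

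Every role class held members that were called lower at the first step and members that were not called. Between 1 and 7 hpf in anti-mir-34 embryos 2 of 3 probe sets of transcription and chromatin were called lower, 2 of 4 of messenger RNA handling, 3 of 5 of turnover, traffic and scaffolds, 2 of 3 of metabolism, calcium and actin, and 2 of 5 without a role. Of all probe sets 20.0% were called lower there, and of the maternally abundant ones 42.3%. A member without a call was not thereby flat. Differences were negative for 19 of the 20, and tmsb5, not called, differed by -1.08, as did fbxo32, which was called. These classes were drawn up after the values had been seen and were not tested against each other. The 5 members with the smallest first step, wu:fi42e03, dennd6b, pou5f3, caprin2 and slmapb, had differences between -0.49 and 0.08.

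Levels at 7 hpf moved with the array. The median of the 20 members was 6.43, 7.42 and 6.53 on anti-mir-34 replicates 1, 2 and 3 and 7.43, 7.76 and 7.12 on mock replicates 1, 2 and 3. Within the anti-mir-34 group, replicate 2 was the highest array for 18 of the 20 members, and replicate 3 the lowest for 13. Within the mock group, replicate 2 was the highest for 15 and replicate 3 the lowest for 16. The array with the lowest gastrula median, mock replicate 2, had the highest median of the members, and the 2 arrays with the highest gastrula medians, anti-mir-34 replicates 1 and 3, had the lowest. The medians of 7 enveloping layer genes, between 8.95 and 10.56, and of 6 yolk syncytial genes, between 5.20 and 7.25, were also lowest on mock replicate 2. GAPDH at its 3' end minus its 5' end was 0.53, 0.78 and -1.40 on anti-mir-34 replicates 1, 2 and 3. It was -0.30, 0.70 and -0.76 on mock replicates 1, 2 and 3, so that replicate 2 was highest and replicate 3 lowest in both groups. The part of these marker and GAPDH differences in the counts was not tested. For pou5f3, npm2b and wu:fi42e03 mock replicate 2 was instead the lowest mock array, and the ranges over the 6 arrays were 9.25 to 10.14, 7.53 to 7.82 and 7.06 to 7.33.

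**Figure D4:**
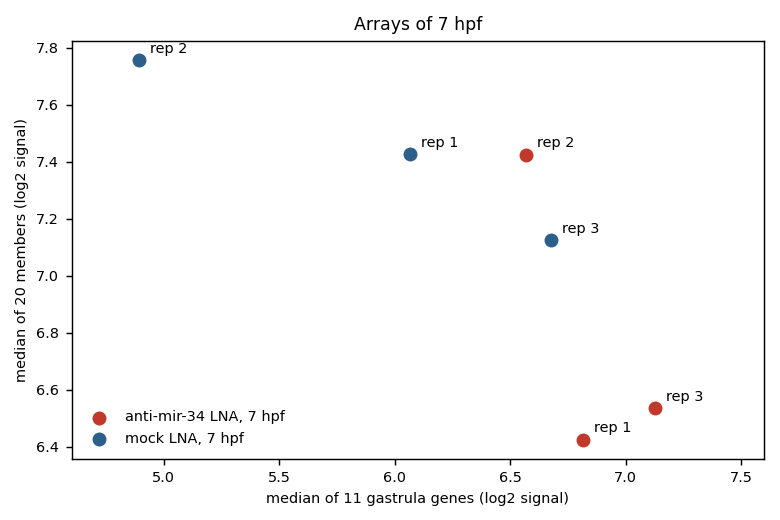
Median log2 signal of the 20 members (y axis) against the median of 11 gastrula genes (x axis) on each of the 6 arrays of 7 hpf, anti-mir-34 in red and mock in blue. Mock replicate 2 sits at the upper left (4.89 and 7.76) and anti-mir-34 replicates 1 and 3 at the lower right (6.81 and 6.43, 7.12 and 6.53).

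The injection effect was read as the difference between anti-mir-34 and mock embryos of 1 age. Mock means were used to choose the members, so these counts describe them and test nothing: a rule that keeps probe sets high in mock embryos at 7 hpf and low at 24 hpf favours a negative difference at 7 hpf and a positive one at 24 hpf. No member passed at any age. At 1 hpf 0 of 20 were called, where 0.806% of all probe sets were called lower and 0.426% higher. At 7 hpf 0 were called, where 0.0129% (2 probe sets) were called lower and 0% higher, and at 24 hpf 0, where 0% were called lower and 0.0129% higher. At an unadjusted p below 0.05 there were 1 member at 1 hpf, 6 at 7 hpf and 5 at 24 hpf, where 9.83%, 12.4% and 4.43% of all probe sets passed in either direction at these ages. The F-test of whether the injection effect changed with age passed for 0 members and for 0.0968% of all probe sets.

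At 1 hpf the differences ran from -1.08 to 0.70, with a median of 0.10. npm2b had the smallest p, with 8.60 ± 0.61 in anti-mir-34 and 7.90 ± 0.25 in mock embryos (SD, n = 3 each), a difference of 0.70 ± 0.31 (limma adjusted p = 0.44). caprin2 stood at 7.71 ± 0.68 in anti-mir-34 and 8.79 ± 0.29 in mock embryos, a difference of -1.08 ± 0.54 (adjusted p = 0.558). slmapb stood at 7.67 ± 0.62 in anti-mir-34 and 8.30 ± 0.12 in mock embryos (difference -0.63 ± 0.46, adjusted p = 0.814). The 3 anti-mir-34 arrays lay below the 3 mock arrays for 3 members, caprin2, slmapb and tent5c Dr.19488.1.A1_at, where this held for 6.3% of all probe sets, and above them for tmem251, where it held for 6.43%.

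At 7 hpf 19 of 20 differences were negative, with a median of -0.87 and a range from -1.17 to 0.13, while the median was 0.03 over all probe sets and -0.16 over the other maternally abundant ones. The smallest p belonged to ccdc117, with 5.55 ± 0.57 in anti-mir-34 and 6.62 ± 0.39 in mock embryos, a difference of -1.07 ± 0.32 (adjusted p = 0.186). glipr2l differed by -1.17 ± 0.38 (adjusted p = 0.224) and tmem251 by -1.14 ± 0.39 (adjusted p = 0.244; 0.0445 without mock 7 hpf replicate 3). The arrays of both treatments overlapped for 18 members. Only caprin2 and fbxo32 had all 3 anti-mir-34 arrays below the 3 mock arrays, where 7.76% of all probe sets did. Anti-mir-34 replicate 1 lay below all mock arrays for 17 members and replicate 3 for 19, but replicate 2 for 2. Replicate 2 was also the highest mock array for most members. The shares of all probe sets for such single arrays were not computed. The mock values of 7 hpf had helped to choose the members, so nothing in these counts is taken as particular to them. Set beside the mock array of its own number, each anti-mir-34 array had the lower median of the members. The values were 6.43 and 7.43 for replicate 1, 7.42 and 7.76 for replicate 2, and 6.53 and 7.12 for replicate 3, though numbers were not used as pairs. The choice of members by mock means favours this order, so it describes them and tests nothing. In the same order, the medians of the gastrula genes were 6.81 and 6.07, 6.57 and 4.89, and 7.12 and 6.68. Their part in these differences was not tested.

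At 24 hpf differences of both signs were found, 11 negative and 9 positive, with a median of -0.25. LOC797085 read -0.32, 1.05 and -2.93 in anti-mir-34 and 1.57, 1.60 and 2.01 in mock embryos (difference -2.46 ± 0.71, adjusted p = 0.77). fbxo32 read 0.74, -0.62 and 0.90 in anti-mir-34 and 1.302, 1.43 and 1.90 in mock embryos (difference -1.20 ± 0.34, adjusted p = 0.77). These were the members whose 3 anti-mir-34 arrays lay below the 3 mock arrays, against 4.32% of all probe sets, and ccdc117 had them above, against 4.85%. tmsb5 differed by -2.10 ± 0.65 (adjusted p = 0.77). The 24 hpf means of these members lay below the array medians, and after adding 16 the differences of all 20 members at 24 hpf lay between -0.25 and 0.23.

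**Figure D5:**
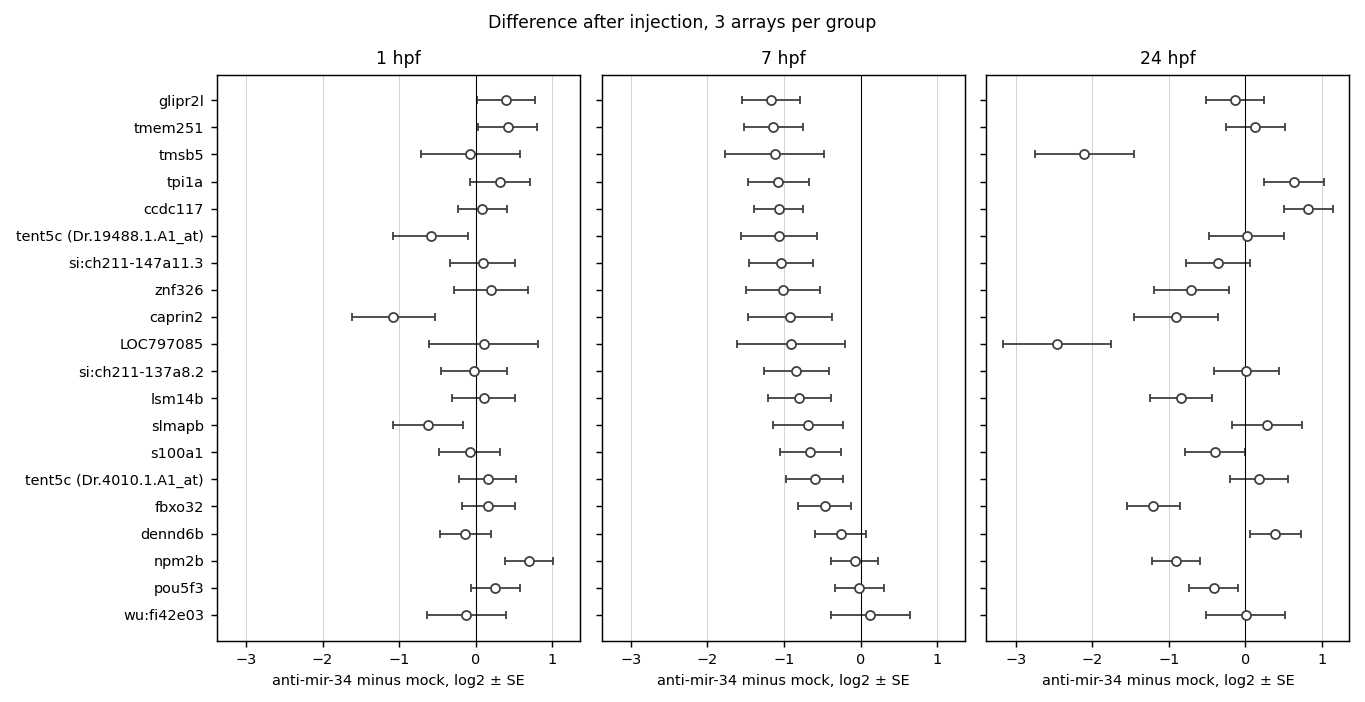
Log2 difference between anti-mir-34 and mock embryos (x axis, with limma's standard error) for the 20 members at 1, 7 and 24 hpf, 3 arrays per group. Points are open because none passed the adjusted threshold, and at 7 hpf 19 of 20 lie below 0.

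Other genes of the same processes were read from lists chosen with earlier results of these data known. For comparison, 19.4% of all probe sets were called lower and 16.5% higher between 7 and 24 hpf in anti-mir-34 embryos. Between 1 and 7 hpf these shares were 20.0% and 19.4%. Some genes, such as buc, dazl, celf1 and birc5b, stand in more than 1 list and are counted in each. Of 12 maternal transcription factors measured, with pou5f3 among them, 7 fell and 1 rose between 7 and 24 hpf in anti-mir-34 embryos, and 4 fell and 2 rose between 1 and 7 hpf. In that list vsx1 and mtf1 were dim, with mock 1 hpf means of 2.65 and 1.61, below the array medians of 3.67 to 3.68. The later rise was that of vsx1, which was also called lower at the earlier step, where mtf1 was called higher. The pluripotency factor nanog fell by 7.97 at the later step and differed by -0.84 at the earlier one (adjusted p = 0.299), and foxh1, the Nodal pathway factor, fell by 6.36 and differed by -0.70 (0.352). Their mock means were 8.94 at 7 hpf and 9.78 at 1 hpf for nanog and 6.54 at 7 hpf and 6.56 at 1 hpf for foxh1, so each missed 1 limit of the rule. Of 16 genes of RNA binding and translation control in the oocyte, lsm14b among them, 13 fell and 0 rose at the later step, and 10 fell and 4 rose at the earlier. In that list btg4, which recruits a deadenylase to maternal messages, lost 4.85 by 7 hpf and a further 6.92 by 24 hpf. Of 11 germ plasm and germ cell genes 9 fell and 0 rose at the later step and 6 fell and 2 rose at the earlier. None is a member, and for ddx4, tdrd7a and piwil1 the rule on names had fixed this in advance. The germ cell helicase ddx4 fell by 6.99 after a first step of -0.15 (0.814). In mock embryos ddx4 stood at 6.17 at 1 hpf, below the level limit, and at 6.97 at 7 hpf, a difference of 0.81.

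Of 9 oocyte chromatin genes, npm2b among them, 2 fell and 0 rose between 7 and 24 hpf, and 3 fell and 3 rose before. Here and in the lists below, the shares of all probe sets were 19.4% lower and 16.5% higher at the later step. At the earlier step they were 20.0% and 19.4%. The other that fell late was h1m, by 9.76. Of 25 genes of meiosis and mitosis 9 fell and 4 rose at the later step and 14 fell and 2 rose at the earlier, while of 12 apoptosis genes 8 fell and 1 rose at the later step and 6 fell and 2 rose at the earlier. Of 8 adhesion and junction genes 4 fell and 1 rose at the later step and 2 fell and 4 rose at the earlier. None of the measured genes of meiosis and mitosis, of apoptosis or of adhesion and junctions is a member. Among the stage markers, 11 of 11 gastrula genes fell at the later step and 10 rose at the earlier, 4 and 7 of 7 enveloping layer genes did so, and 8 of 8 muscle genes rose at the later step. Of 6 yolk syncytial genes 6 rose at the earlier step, and 3 fell and 1 rose at the later. Of 15 genes reported as miR-34 targets in other systems, of which ccnd1 was left out by name, none is a member either. Of these, 1 fell and 4 rose at the later step and 1 fell and 9 rose at the earlier, and at 1, 7 and 24 hpf 0 of 15 passed for anti-mir-34 against mock embryos. In the other lists 5 genes passed for that comparison, all at 1 hpf, where 0.806% of all probe sets were called lower and 0.426% higher. Lower in anti-mir-34 embryos were cdk1, cenpe and chek1 of meiosis and mitosis, with differences of -1.58, -1.73 and -1.66 (limma adjusted p = 0.00302, 0.00511 and 0.0191). bcl2l10 of apoptosis was lower too (difference -1.26, adjusted p = 0.0212). krt97 of the enveloping layer was higher (difference 2.13, adjusted p = 0.00597), with 1 hpf means of 2.48 in anti-mir-34 and 0.36 in mock embryos. Both means lay below the array medians of 3.67 to 3.68, so the size of that difference is not exact.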

How the data were processed

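RNA of whole embryos was measured on 18 arrays, 3 in each of 6 groups taken from the sample titles. The deposited values are log2 signals of 15617 probe sets. The scale was read from the values, whose minimum of -3.32 is the log2 of 0.1. Per the submitters' processing notes GCOS was used, without a version. No label or header says how probes were summarised or arrays normalized. Deposited distributions were nearly equal over arrays, so differences are relative to other probe sets. Depth has no count behind it, and 3 arrays per group limit the precision. Of all values 131 were missing, 0 of them in members.

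The 115 control probe sets were left out, and members were named from the platform annotation and checked by Entrez number against RefSeq (20 of 20 matched). Members, lists and classes were chosen with earlier results of these data known. Named were the 12 members with the largest and the 6 with the smallest fall to 24 hpf in anti-mir-34 arrays, up to 6 called to 7 hpf there, the 3 with the smallest p between treatments at each age, members in a list, the 3 just inside and outside each limit, and list genes where a result turned on them. The others of the 20 were added so that all are described, and nanog, foxh1, btg4, ddx4 and h1m were chosen after their values were seen. One mean per group was fitted to all 18 arrays with limma 3.58.1 in R 4.3.3 (12 residual and 8.06 prior degrees of freedom, eBayes with trend, two-sided), with Benjamini-Hochberg adjustment over 15502 probe sets and a threshold of 0.05. The fit was tested on simulated data. In lists, the probe set with the highest mean stood for a gene. Same-numbered anti-mir-34 and mock arrays deviated together with r between 0.0147 and 0.277, not above 0.1 in every pair, so numbers were not used as pairs. Promoter motifs and sequences were not analysed here.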

Additional observations from a re-analysis of the deposited data

How the results depend on the processing

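The fall of all 20 members between 7 and 24 hpf in anti-mir-34 embryos was called under every alternative fit: 16 added to the signals, quantile normalization, no trend, a minimum group mean of 4, a replicate block, anti-mir-34 arrays alone, and each anti-mir-34 array of 7 and of 24 hpf left out (20 to 20). With other limits for membership all were called too: 32 with a fall of at least 3, 10 with at least 5, 11 within 0.5 and 28 within 1 at 7 hpf, 44 with a 1 hpf mean of at least 6 and 9 with at least 8, which are also the numbers of members under these limits. With 16 added to the signals, 1 probe set met the rule, and with each mock array left out 10 to 35 did. The count of 11 that fell between 1 and 7 hpf ranged from 6 to 14 with an anti-mir-34 array of 1 or 7 hpf left out and was 13 with the replicate block, 15 with 16 added, 12 on anti-mir-34 arrays alone and 10 without trend. With other limits for membership it was 4 of 10 (fall of at least 5), 5 of 11 (within 0.5), 18 of 28 (within 1), 20 of 44 (1 hpf mean of at least 6) and 4 of 9 (at least 8), where the altered set of members by itself changes the count. No member was called between anti-mir-34 and mock embryos at any age under the alternative fits, the replicate block (0 at each age) included, except 1 (tmem251) at 7 hpf with an array of that comparison left out (0 to 1). Arrays correlated best with their own number in 5 of 6 cases at 1 hpf and in 6 of 6 at 7 and at 24 hpf, a hint from the data and not from the design. Of 1140 single-member values under the alternatives 0 changed sign with a call, 13 calls were lost and 13 gained, 25 of these 26 between 1 and 7 hpf in anti-mir-34 embryos. Differences from levels near the bottom of the scale at 24 hpf have no exact size.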
